A study of Mus musculus with 10 samples.

Results

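The DNA methylation and demethylation genes described here write, protect, oxidise or read DNA methylation, and were followed across embryonic stem cell (ESC) lines derived from mothers on a low protein or a normal protein diet. The 10 members are Dnmt1, Dnmt3a, Dnmt3b, Dnmt3l, Uhrf1, Tet1, Tet2, Tet3, Tdg and Zfp57. They were chosen by name for their roles, though with earlier results of these data known, and each had 1 row in a table of 20206 genes. RNA was sequenced from 10 undifferentiated ESC lines, 5 from LPD mothers (lines 1, 4, 6, 20 and 40) and 5 from NPD mothers (lines 8, 15, 21, 36 and 51). All lines were wild-type C57BL/6 and labelled male. Mothers were fed LPD (9% casein) or NPD (18% casein) from mating until embryonic day 3.5, when blastocysts were collected and the lines derived. Each line came from 1 blastocyst and was sequenced once, after growth on mouse embryonic fibroblast feeders and then without them. The diet of the mother was therefore carried by 5 lines a group, and differences between single lines enter the spread that each comparison is set against.

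DNA methylation in mammals is a methyl group on the cytosine of a CpG. Dnmt1 copies the pattern onto the new strand after replication, and Uhrf1 brings Dnmt1 to the half-methylated site. Dnmt3a and Dnmt3b set new methylation, with Dnmt3l as a partner that has no catalytic activity of its own. The Tet enzymes oxidise methylcytosine, and Tdg, a DNA glycosylase, cuts out the further oxidised bases so that repair restores an unmethylated cytosine. Zfp57 is a zinc finger protein that binds methylated imprinting control regions and helps to keep them methylated while the rest of the genome is reprogrammed. Methylation in ESCs is known to vary with culture and with the state of the cells, and Prdm14, which represses the de novo enzymes, is part of that setting.

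The members lie on 7 chromosomes (GRCm38). Dnmt1 lies at chr9:20907209-20959888, Dnmt3a at chr12:3806007-3914443, Dnmt3b at chr2:153649450-153687730 and Dnmt3l at chr10:78041947-78063622. Uhrf1 lies at chr17:56303321-56323486, Tet1 at chr10:62804570-62908996, Tet2 at chr3:133463679-133545139 and Tet3 at chr6:83362373-83459084. Tdg lies at chr10:82629828-82650799 and Zfp57 at chr17:37001163-37010635. On the opposite strand, exons of Dnmt3a overlap Dnmt3aos, those of Dnmt3l Aire, those of Tet2 Gm42567 and those of Tdg Glt8d2. Pseudogenes are annotated for Dnmt3a (Dnmt3a-ps1), Dnmt3l (Dnmt3l-ps1) and Tdg (Tdg-ps), so reads of these genes could have been shared. Strand use in counting was not given in the sources used here.

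The stretches before the starts are shown for the genes whose levels moved together over the lines (Dnmt1, Dnmt3b and Tet1) and for Dnmt3a, whose level varied most. Each is the 250 bases before a RefSeq start on GRCm38.p6, 5′ to 3′ on the gene's strand, with every CpG, the site these enzymes act on, in capitals. The Dnmt1 stretch, from the most CpG-rich of its 3 windows, lies at chr9:20952624-20952873 on the minus strand, that of Dnmt3b at chr2:153649199-153649448 on the plus strand and that of Tet1 at chr10:62887325-62887574 on the minus strand. Those of Dnmt3a lie at chr12:3806910-3807159 and chr12:3891494-3891743, both on the plus strand.

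Dnmt1 start: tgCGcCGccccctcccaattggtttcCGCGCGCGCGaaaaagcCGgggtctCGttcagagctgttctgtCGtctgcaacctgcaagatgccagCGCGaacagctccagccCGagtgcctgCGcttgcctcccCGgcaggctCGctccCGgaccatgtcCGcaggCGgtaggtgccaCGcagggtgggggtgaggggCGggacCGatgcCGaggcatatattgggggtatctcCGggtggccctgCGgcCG

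Dnmt3b start: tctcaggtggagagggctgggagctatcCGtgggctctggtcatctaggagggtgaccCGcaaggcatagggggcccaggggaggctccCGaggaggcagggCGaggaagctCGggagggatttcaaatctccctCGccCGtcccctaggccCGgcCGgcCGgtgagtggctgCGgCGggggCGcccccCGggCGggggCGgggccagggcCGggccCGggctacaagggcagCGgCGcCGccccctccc

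Tet1 start: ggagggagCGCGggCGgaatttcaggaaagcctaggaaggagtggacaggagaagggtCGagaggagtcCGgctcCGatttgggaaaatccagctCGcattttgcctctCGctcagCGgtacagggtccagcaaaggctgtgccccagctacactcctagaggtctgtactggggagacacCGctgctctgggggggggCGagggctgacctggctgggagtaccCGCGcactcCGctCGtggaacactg

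Dnmt3a upstream start: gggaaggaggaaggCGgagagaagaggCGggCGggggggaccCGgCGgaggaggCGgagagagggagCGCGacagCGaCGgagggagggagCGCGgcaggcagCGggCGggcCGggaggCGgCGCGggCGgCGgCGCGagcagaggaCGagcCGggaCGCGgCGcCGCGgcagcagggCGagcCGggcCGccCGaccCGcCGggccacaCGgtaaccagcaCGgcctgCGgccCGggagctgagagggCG

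Dnmt3a downstream start: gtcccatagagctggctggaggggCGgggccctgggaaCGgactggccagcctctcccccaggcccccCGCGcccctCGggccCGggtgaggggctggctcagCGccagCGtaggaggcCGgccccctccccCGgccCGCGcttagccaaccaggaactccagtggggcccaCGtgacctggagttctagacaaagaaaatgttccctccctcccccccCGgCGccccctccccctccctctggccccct

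The first Dnmt3a stretch held 40 CpGs and the one farther downstream 15, both within the annotated gene. Dnmt3a is known to give a shorter protein from a downstream start in ESCs, and the values used here are sums over a gene's transcripts, so they do not say which start was used. Dnmt1, Dnmt3b and Tet1 held 26, 21 and 15. Over the full windows of 300 bases (250 before and 50 after a start), RefSeq gave 19 windows for the 10 members. Tet2 had the densest, with 57 CpGs, and 99.8% of 32851 windows in the mouse table held fewer. The 3 Dnmt3l windows held 6, 4 and 3 CpGs and the 3 Zfp57 windows 6, 9 and 4, near the median window with 7. A CCAAT box (CCAAT on either strand) was found in 7 of the 19 windows (36.8%; of Dnmt1, Uhrf1, Tet3, Tdg and Zfp57), against 37.4% of all windows. A TATA box (TATAAA on either strand) was found in 1 of the 19 (5.26%), a Zfp57 window, against 13.6% of all windows. A GC box (GGGCGG on either strand) was found in 12 of the 19 (63.2%), against 35.7% of all windows. Windows of the same gene can overlap, as for Dnmt3a. These are letter matches in the windows, and no binding or methylation was measured here.

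Values are the authors' normalised counts per gene, so a value can be compared between lines for 1 gene, and not between genes unless divided by length. The table summed to between 16399000 and 18325000 per line. The lines differed in how many reads stood behind those values: from the steps between the low values, the depth was an estimated 5847835 read equivalents in LPD line 4, 12344336 in LPD line 6 and 11248265 in LPD line 40, and 20389064 to 24169782 in the other 7 lines. All 3 shallower lines were LPD, so depth ran in part with diet, and its part in the diet differences was not tested. Every member rested on at least 111 read equivalents in every line. Pou5f1, a core pluripotency factor, was at 18250.0 to 30420.0 in all 10 lines and Nanog at 5141 to 11571, so these defining ESC markers were present in every line. In contrast, libraries stood apart in other markers. NPD line 15 listed the Y-linked Ddx3y at 7.70 and LPD line 4 at 174, against 1109.7 to 1493 in the other 8 lines, although every line was labelled male. X-linked genes lay 0.49 (log2) above the median line in NPD line 15 and within 0.06 of it elsewhere. The summed level of 7 fibroblast markers was 5390 in NPD line 15, 3175 in LPD line 6, 2002 in NPD line 8 and 291 to 1039 in the other 7 lines, while Lum was at 0 in 7 lines. The summed level of 6 primitive endoderm markers was lowest in NPD line 15 (288), LPD line 6 (547) and NPD line 8 (937). Bulk RNA does not separate fewer cells of a type from less RNA per cell.

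Diet was compared first across all genes, and none of the 14354 genes tested had an adjusted p under 0.1 (0%; limma with Benjamini-Hochberg adjustment, smallest adjusted p 0.207), against 721 (5.02%) at an unadjusted p under 0.05 and 146 (1.02%) whose 5 LPD and 5 NPD values did not overlap. No member passed the adjusted test. Of the 10 members, 7 were lower and 3 higher in LPD lines, with a median log2 difference of -0.09 against 0.00 over all genes tested. Tet2 alone had an unadjusted p under 0.05, and no member had values that did not overlap between the diets. A single member past a threshold that 5.02% of all genes pass is not a result about the group. Without NPD line 15 and LPD line 4, the lines at odds with their male label, 8 members were lower, and without the 3 lines with the highest fibroblast sums 5 were lower. In both cases Tet2 alone had an unadjusted p under 0.05. The plot of log2 differences shows how the intervals of 9 members cross 0.

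**Figure D1:**
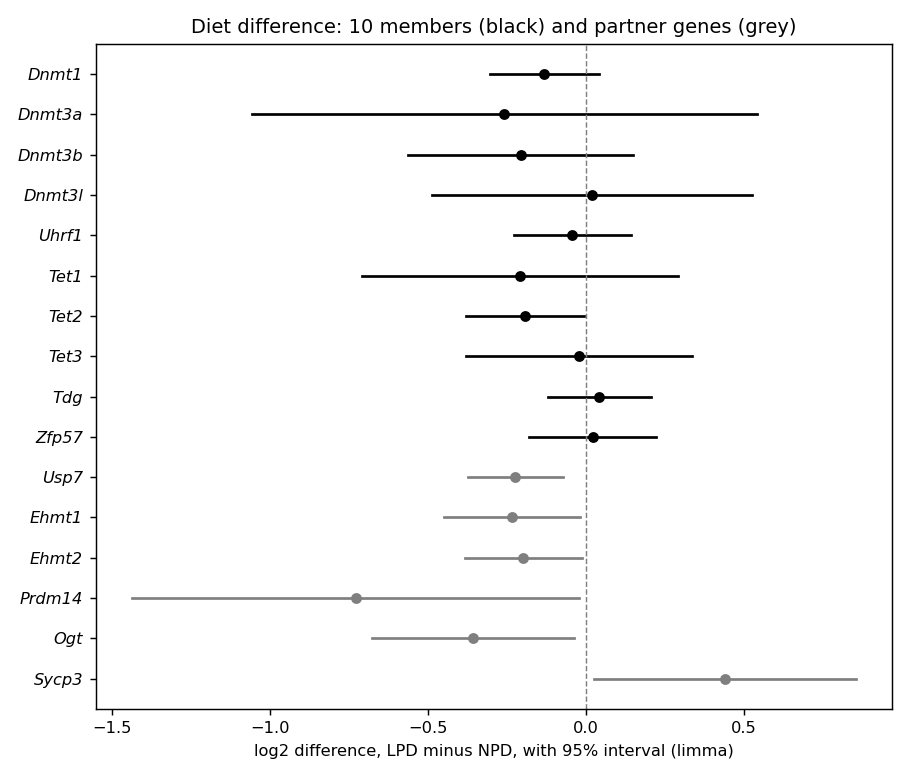
Log2 difference, LPD minus NPD, of each member (black) and of the partner genes with an unadjusted p under 0.05 (grey), with points for the estimate and lines for its 95% interval from limma on 5 LPD and 5 NPD lines. The interval of Tet2 ends just below 0 (-0.38 to -0.01), that of Dnmt3a is the widest of the members (-1.06 to 0.54), and the narrowest is that of Tdg (-0.12 to 0.21).

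Maintenance methylation rests on Dnmt1 and Uhrf1, and the diet difference of neither gene passed the test against the spread between lines. Dnmt1 was at 5764, 6538, 6052, 6676 and 5470.3 in LPD lines 1, 4, 6, 20 and 40. In NPD lines 8, 15, 21, 36 and 51 it was at 6708, 7171, 6245, 6868 and 6397. LPD lines 1, 6 and 40 lay below every NPD line and all 5 below the NPD median, but lines 4 and 20 lay among the NPD lines. LPD lines averaged 6099.9 ± 509 and NPD lines 6678 ± 369.6 (SD, n = 5 lines each), which gave a log2 difference of -0.13 ± 0.08 (SE; limma adjusted p = 0.994, exact permutation p = 0.0794). Its 95% interval ran from 0.81 to 1.03 fold.

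Uhrf1 was at 8759, 9522, 8225, 10440.0 and 9831 in the LPD lines and at 9257, 8764, 9844, 10242 and 10010.0 in the NPD lines. LPD lines 1 and 6 lay below every NPD line and LPD line 20 above every NPD line, with a log2 difference of -0.04 ± 0.09 (SE; exact permutation p = 0.571). Within diets the SD of Uhrf1 was 0.12 on the log2 scale and that of Dnmt1 0.10, and only 6.56% and 3.86% of the genes tested had a smaller SD. Both genes were thus among the steadiest of all genes tested, whereas none of the de novo genes was. This ranking, here and below, covers genes of every level, and genes of similar level were not ranked apart.

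**Figure D2:**
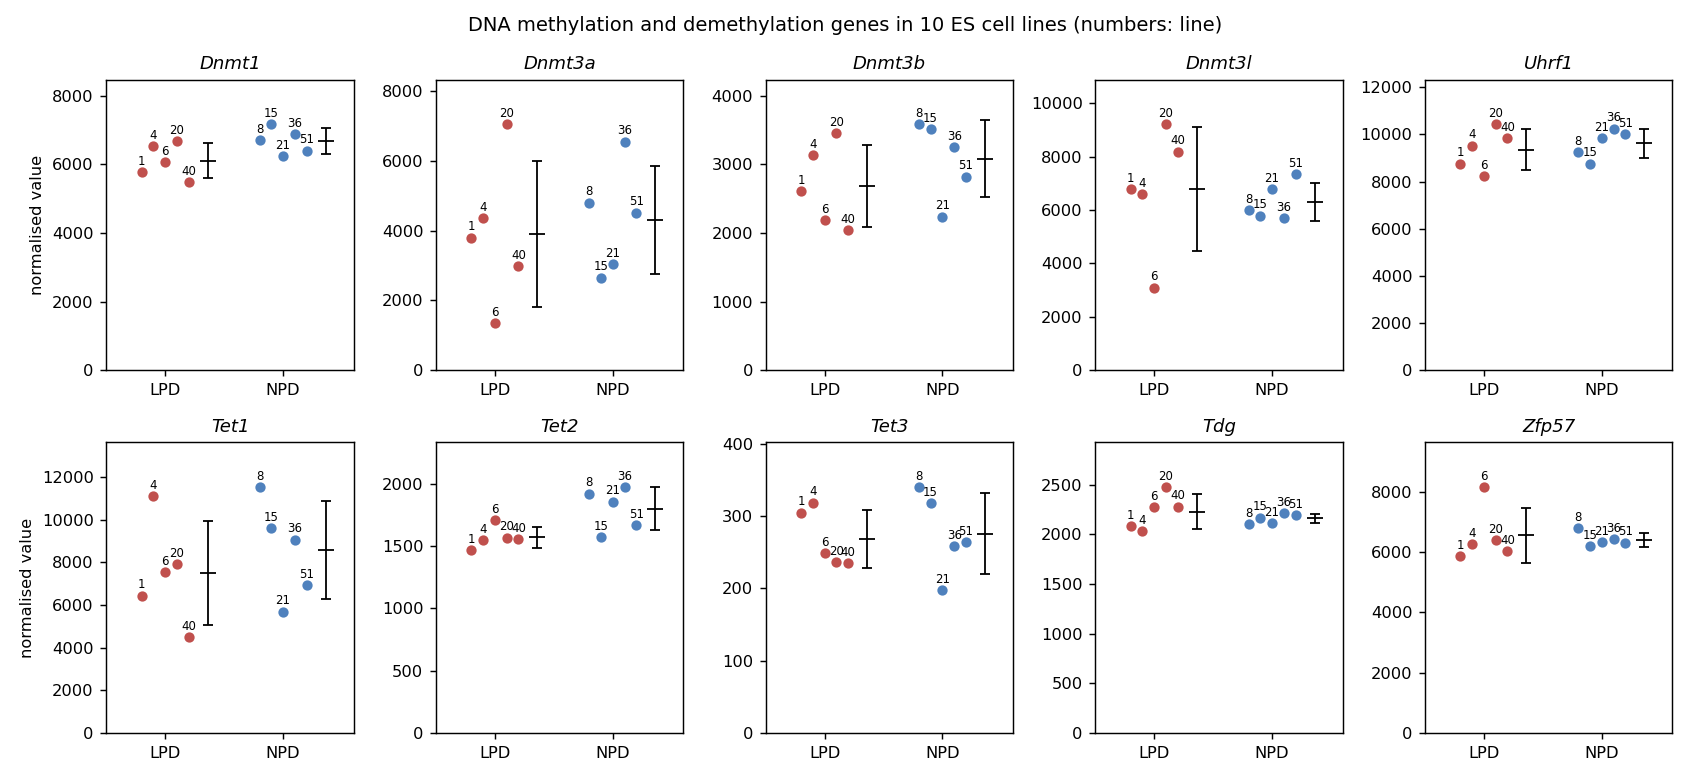
Normalised value of each member in each line (points, numbered by line; red, LPD; blue, NPD), with the mean and SD of the 5 lines of each diet in black and axes from 0. Dnmt3a spans 1343 to 7049 and Dnmt3l falls to 3092 in LPD line 6, while Dnmt1, Uhrf1, Tet2 and Tdg range 1.22- to 1.34-fold from lowest to highest line.

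Of the de novo methylation genes, Dnmt3a varied widely from line to line within both diets, Dnmt3l mainly among the LPD lines (SD 0.62 in LPD and 0.16 in NPD lines on the log2 scale), and Dnmt3b about as much as the median gene (within-diet SD 0.30 against 0.27). Dnmt3a was at 3799, 4345, 1343, 7049 and 2985 in LPD lines 1, 4, 6, 20 and 40. In NPD lines 8, 15, 21, 36 and 51 it was at 4799, 2655, 3045, 6544 and 4514. LPD lines held both the highest and the lowest value, a 5.25-fold range, and LPD line 20 and NPD line 36 stood at the top together. The within-diet SD of 0.72 on the log2 scale was larger than that of 89.6% of genes tested. The log2 difference between diets was -0.26 ± 0.37 (SE; limma adjusted p = 0.994, exact permutation p = 0.595), and its 95% interval ran from 0.48 to 1.45 fold. Without LPD line 6 the difference turned to 0.08.

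Dnmt3b was at 2609, 3134, 2193, 3455 and 2047 in the LPD lines and at 3589, 3513, 2238, 3258 and 2823 in the NPD lines. Its range was 1.75-fold, the lowest values were in LPD lines 6 and 40 and NPD line 21, and the groups overlapped. The log2 difference was -0.21 ± 0.16 (SE; exact permutation p = 0.294), and -0.12 without LPD line 40 and -0.32 without NPD line 21.

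Dnmt3l was at 6787, 6610.3, 3092, 9226 and 8194 in the LPD lines. In the NPD lines it was at 5986, 5793, 6778, 5706 and 7340.3. LPD line 6 had less than any other line, whereas LPD lines 20 and 40 lay above every NPD line. With those lines on either side the log2 difference was 0.02 ± 0.23 (SE; limma adjusted p = 0.997, exact permutation p = 0.976). Without LPD line 6 it was 0.28, with an unadjusted p of 0.0389 (limma, adjusted p = 0.918), and without LPD line 20 it was -0.12. The direction of Dnmt3l between diets thus rested on single lines. LPD line 6 was also lowest for Dnmt3a, and it was among the 3 lines with the highest summed fibroblast markers and 1 of the 3 lines with fewer read equivalents. Their part in these values was not tested. NPD lines 15 and 8, with fibroblast sums of 5390 and 2002, had Dnmt3l at 5793 and 5986 and Dnmt3a at 2655 and 4799. Apart from LPD line 6, only NPD line 36 (5706) had less Dnmt3l than these lines. NPD line 15 had the least Dnmt3a after LPD line 6. With LPD line 6 and NPD lines 15 and 8 all left out, the log2 difference was -0.05 for Dnmt3a and 0.22 for Dnmt3l.

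**Figure D3:**
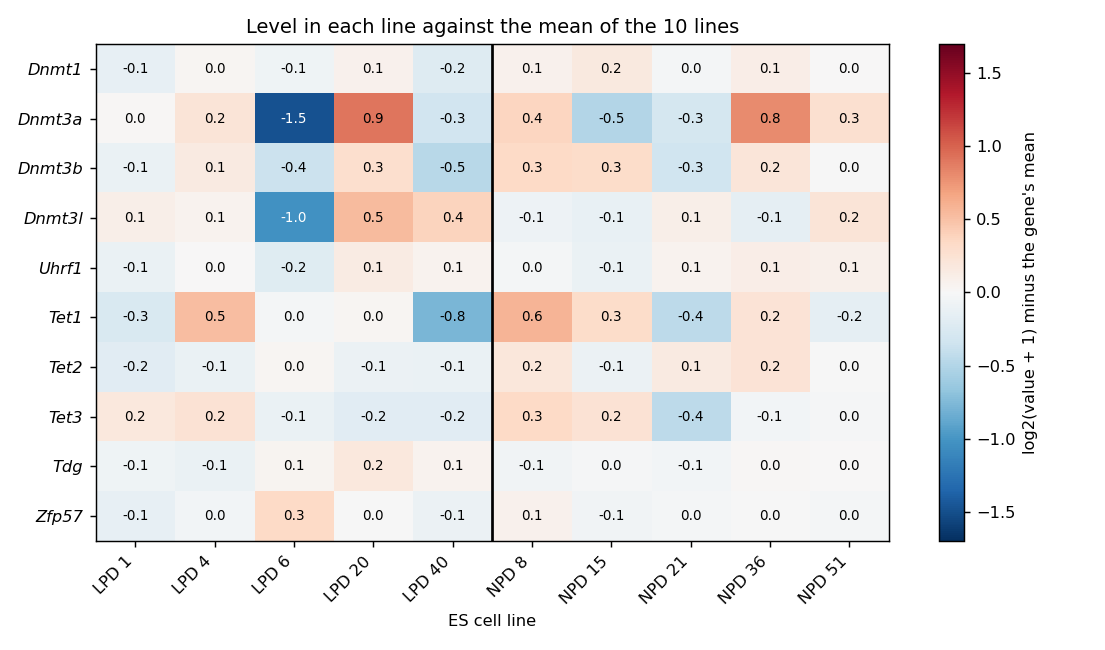
Log2(value + 1) of each member (rows) in each line (columns, LPD left of the black line) minus the gene's mean over the 10 lines, printed in each cell and coloured from blue (below) to red (above). LPD line 6 is 1.5 below the mean for Dnmt3a and 1.0 below for Dnmt3l, and the rows of Dnmt1, Uhrf1, Tet2 and Tdg are pale throughout.

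TET genes differed from each other in level and in spread. Per kilobase of transcript, Tet3 was the lowest of the 10 members and Tet2 the next lowest, whether the median or the longest annotated transcript gave the length (24.9 ± 4.22 and 184 ± 19.2 normalised value per kb, SD, n = 10, by the longest), although by the median length Tet2 and Dnmt3b, at 700.1 and 704 per kb, did not differ beyond their spread. Tet1, the main Tet enzyme of ESCs together with Tet2, gave 559 ± 160 per kb by the longest transcript but 13393 by the median, since many short partial transcripts are annotated, so its place among the members cannot be set. Uhrf1 stood above Dnmt1 and Dnmt1 above Dnmt3b by both lengths (2646 ± 201, 1088 ± 88.3 and 668 ± 136 per kb by the longest), and Dnmt3l above all of these on average (3596 ± 899), but below Uhrf1 in LPD line 6.

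Tet2 showed the largest diet difference of the members relative to its spread. Its values were 1470.3, 1548, 1709, 1568 and 1557 in LPD lines 1, 4, 6, 20 and 40. The NPD lines had 1923, 1571, 1858, 1977 and 1667. LPD lines 1, 4, 20 and 40 lay below every NPD line, but LPD line 6 lay above NPD lines 15 and 51. LPD lines averaged 1570.5 ± 86.4 and NPD lines 1799 ± 173 (SD, n = 5 lines each), which gave a log2 difference of -0.19 ± 0.09 (SE) with a 95% interval of 0.77 to 0.996 fold. Its unadjusted limma p was 0.0442 and its adjusted p 0.986, with an exact permutation p of 0.0476, so Tet2 did not pass the test over all genes. Leaving out any 1 of 7 lines (LPD 1, 4, 20 or 40, NPD 8, 21 or 36) took the unadjusted limma p above 0.05. With each line of either diet left out in turn, the difference stayed between -0.24 (without NPD line 15) and -0.16 (without NPD line 36). With NPD line 15 and LPD line 4 both left out it was -0.235.

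Tet1 ranged 2.57-fold, from 4488 in LPD line 40 to 11538 in NPD line 8. The LPD lines had 6437, 11108, 7525, 7924 and 4488. The NPD lines had 11538, 9597, 5690.2, 9064 and 6919.5. High and low lines were found in both diets, and the log2 difference was -0.21 ± 0.23 (SE; exact permutation p = 0.468), and -0.04 without LPD line 40 and -0.37 without LPD line 4. Tet3, known best for oxidising the paternal genome in the zygote, was at 235 to 318 in LPD and 197 to 340.4 in NPD lines, with a log2 difference of -0.02 ± 0.17 (SE; exact permutation p = 0.929).

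Tdg and Zfp57 had the narrow intervals of genes that varied little, with no diet difference past the test. Tdg was at 2079, 2032, 2271, 2478 and 2278 in the LPD lines and at 2104, 2168, 2114, 2215 and 2194 in the NPD lines. Just 1.5% of the genes tested had a smaller within-diet SD than its 0.08 (log2), and the 95% interval of its difference reached from 0.92 to 1.15 fold (log2 difference 0.04 ± 0.08, SE; exact permutation p = 0.508). Zfp57 was at 5879, 6279, 8175, 6413 and 6044 in the LPD lines and at 6807, 6203, 6326, 6443 and 6321 in the NPD lines. LPD line 6, the line low in Dnmt3a and Dnmt3l, was the highest for Zfp57. The log2 difference was 0.02 ± 0.09 (SE; exact permutation p = 0.937), with a 95% interval of 0.88 to 1.17 fold, and it turned to -0.06 without that line.

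Members were then compared with each other across the 10 lines. These correlations are descriptions: every gene was read in the same libraries, so depth and composition of a library are shared by both genes of a pair. Of 45 pairs, 7 had a Pearson r of 0.7 or more, 1 had -0.7 or less, 25 lay between -0.3 and 0.3, and the median was 0.16. The same shares over pairs of all genes were not computed, so these counts have no background beside them. Dnmt1, Dnmt3b and Tet1 formed a set: r was 0.86 for Dnmt1 with Dnmt3b, 0.84 for Dnmt3b with Tet1 and 0.80 for Dnmt1 with Tet1. All 3 were lowest in LPD line 40. In LPD line 4 and in NPD lines 8, 15 and 36 each was above its mean normalised value over the lines. Deviations from the diet means gave 0.86, 0.83 and 0.83, and leaving out each line in turn gave at least 0.80, 0.76 and 0.65. Tet3 joined Tet1 (r = 0.72, at least 0.63 without any 1 line). A copier, a setter and an oxidiser of methylation were thus higher or lower in largely the same lines.

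Dnmt3a, Dnmt3l and Uhrf1 formed a second set, with r of 0.79 for Dnmt3a with Uhrf1, 0.75 for Dnmt3l with Uhrf1 and 0.70 for Dnmt3a with Dnmt3l. Much of it was LPD line 6: without that line the values were 0.61, 0.51 and 0.18. The one strongly negative pair, Dnmt3l with Zfp57 (r = -0.83), went to -0.25 without it. Dnmt3a with Dnmt3b gave 0.64, and 0.53 without LPD line 6. The matrix of correlations puts both versions side by side.

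**Figure D4:**
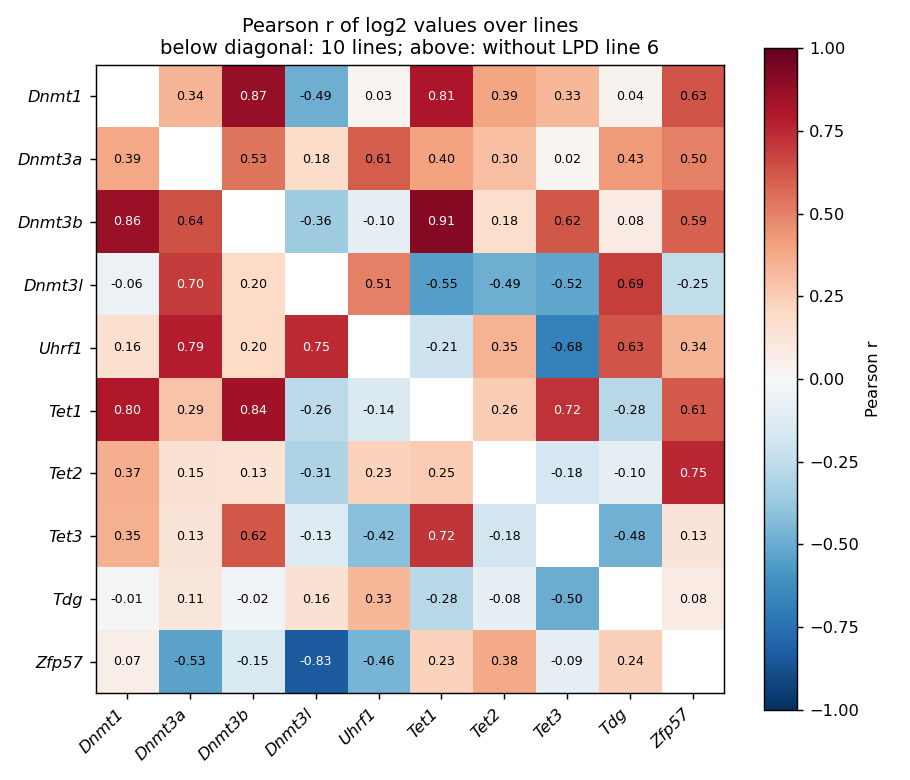
Pearson r between members of log2(value + 1) over all 10 lines (below the diagonal) and over 9 lines without LPD line 6 (above it), coloured from blue (-1) to red (1). Dnmt1, Dnmt3b and Tet1 stay together with and without that line (0.86, 0.84 and 0.80 below), while Dnmt3a with Dnmt3l goes from 0.70 to 0.18.

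Other genes tracked single members closely, as named by the rule of the 2 highest r over the 10 lines. Dnmt1 was most like Rbm41 and Duxbl1 (r = 0.93 each), Dnmt3a most like Gart (0.96) and H60b (0.95), and Dnmt3b most like Cradd and Qser1 (0.95 each). Qser1 is known to guard DNA methylation valleys in ESCs. Dnmt3l was most like Sarnp (0.94) and Gm3147 (0.93), and Uhrf1 most like Nop56 (0.97), a nucleolar protein, and Rcc1l (0.96). Tet1 was nearest to Brca1 and Fancd2 (0.95 each), both DNA repair genes, and Tet2 to Cenpj (0.95) and Cep95 (0.88). Tet3 was nearest to Dnaic1 (0.94) and Psd2 (0.93), Tdg to Ngdn (0.95) and Pou4f2 (0.94), and Zfp57 to Usp47 and Arhgap5 (0.96 each). With 14354 genes and 10 lines, r of 0.9 or more was met by 1 gene for Tet2 and by up to 34 genes for Uhrf1, so the top names are a few among many.

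Partners of the members were taken as 8 lists holding 58 genes outside the members, of which 57 were tested (Cxxc4 was too low). Of the 57, 38 were lower and 19 higher in LPD lines, with a median log2 difference of -0.06. Of these, 5 were lower and 1 was higher at an unadjusted p under 0.05, against 5.02% of all genes tested in either direction, and none had an adjusted p under 0.1. The values of 1 gene, Usp7, did not overlap between diets, against 1.02% of all genes tested.

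Usp7, a deubiquitinase that stabilises Dnmt1 and Uhrf1, was lower in every LPD line than in any NPD line. It was at 6243, 6214, 6573, 7254 and 6566 in LPD lines 1, 4, 6, 20 and 40, and at 7557, 7619.7, 7617, 7816 and 7696.5 in NPD lines 8, 15, 21, 36 and 51. NPD lines averaged 7661 ± 99.6 and LPD lines 6570.0 ± 419 (SD, n = 5 lines each). The log2 difference was -0.22 ± 0.07 (SE; limma unadjusted p = 0.00669 and adjusted p = 0.684; exact permutation p = 0.00794, the smallest that 5 lines against 5 allow). Groups that do not overlap always give this smallest permutation p. The difference stayed between -0.26 and -0.20 with an unadjusted limma p under 0.05 under all 21 alternatives, which reuse the same lines. In the maintenance list, which also held Uhrf2, Pcna, Hells, Cdca7, Lig1 and Dppa3, Usp7 was the 1 of 7 genes that passed the unadjusted threshold. Over all genes tested, 5.02% passed it. Over the 10 lines Usp7 had r of 0.64 with Dnmt1, but 0.33 after the diet means were taken out.

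**Figure D5:**
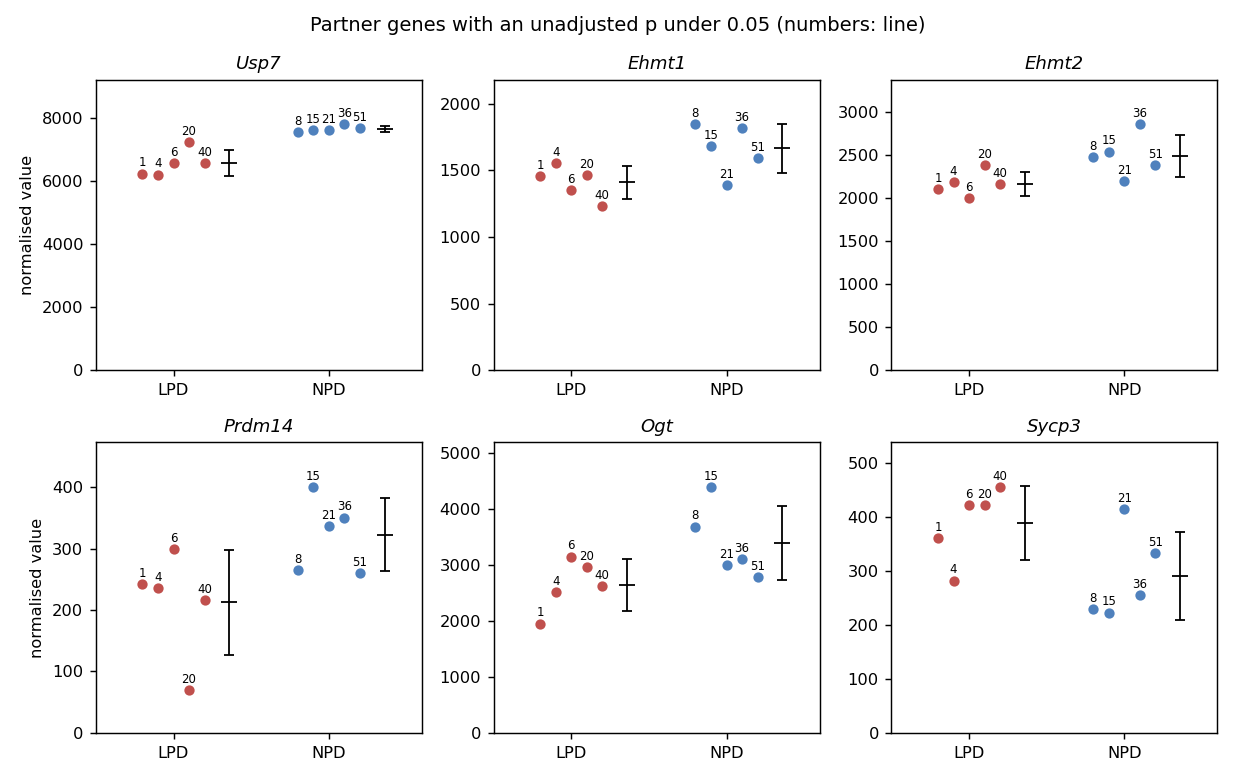
Normalised value of the 6 partner genes with an unadjusted p under 0.05 in each line (points, numbered by line; red, LPD; blue, NPD), with the mean and SD of the 5 lines of each diet in black and axes from 0. Usp7 is the one gene whose groups do not overlap (6214 to 7254 against 7557 to 7816), and the low Prdm14 point is LPD line 20 (69.2).

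Among partners of the de novo enzymes, 3 of 7 genes were lower at an unadjusted p under 0.05, against 5.02% of all genes tested in either direction. The lists were chosen with earlier results of these data known, so such counts are descriptions. Ehmt1 and Ehmt2, which encode the paired H3K9 methyltransferases GLP and G9a, had log2 differences of -0.23 ± 0.10 and -0.20 ± 0.09 (SE; limma adjusted p = 0.956 and 0.982). Of the 21 alternatives, 8 for Ehmt1, 10 for Ehmt2 and 7 for Prdm14 took the unadjusted limma p above 0.05. Prdm14, the repressor of Dnmt3a, Dnmt3b and Dnmt3l in naive ESCs, was at 242, 236, 299, 69.2 and 217 in the LPD lines. In the NPD lines it was at 265, 401, 336, 350.5 and 259.7. LPD line 20, with the least Prdm14, had the most Dnmt3a and Dnmt3l of all lines, but its Dnmt3b (3455) was below that of NPD lines 8 and 15 (3589 and 3513). The log2 difference of Prdm14 between diets was -0.73 ± 0.33 (SE; limma adjusted p = 0.987), and -0.37 without LPD line 20. Over the 10 lines Prdm14 had r of -0.47 with Dnmt3a, -0.18 with Dnmt3b and -0.55 with Dnmt3l, and -0.12, 0.33 and -0.38 without that line. Nsd1 and Setd2, which make the H3K36 methylation that Dnmt3 proteins bind, were near level (-0.05 and 0.03).

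Of the TET partners, 2 of 7 tested were lower at an unadjusted p under 0.05, against 5.02% of all genes tested in either direction. They were Prdm14, already counted among the de novo partners, and Ogt. Ogt, the X-linked O-GlcNAc transferase that binds Tet proteins, was at 1954, 2519.6, 3152, 2971 and 2627 in the LPD lines. In the NPD lines it was at 3688, 4401, 2997, 3100.2 and 2787. Its highest value was in NPD line 15, the line in which X-linked genes were raised, and its log2 difference was -0.36 ± 0.15 (SE; limma adjusted p = 0.952). For Ogt, 7 of the 21 alternatives took the unadjusted limma p above 0.05. The other lists held no gene at an unadjusted p under 0.05 among the 8 of imprint maintenance (lowest p Setdb1, -0.20), the 11 of base excision repair (Mbd4, -0.23), the 8 methyl-CpG readers (Zbtb38, -0.35) and the 3 methyl donor enzymes (Mat2a, 0.14).

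Germline genes that methylation is known to silence were the one list with a median above 0.1. Of its 10 genes, 9 had a log2 difference above 0, with a median of 0.19, but only Sycp3, a meiotic axis protein, had an unadjusted p under 0.05 (0.44 ± 0.19, SE; limma adjusted p = 0.982). Over all genes tested, 7247 of 14354 had a difference above 0. NPD line 15 was the lowest line for 6 of the 10 germline genes, and the difference of Sycp3 was 0.35 without it (limma unadjusted p = 0.0979) and 0.19 without the 3 lines with the highest fibroblast sums (unadjusted p = 0.395). With NPD line 15 and LPD line 4 left out, 2 partner genes were lower and 1 higher at an unadjusted p under 0.05, and without the 3 lines with the highest fibroblast sums 1 was lower and 1 higher. The counts over partner genes therefore moved with these lines, whereas Usp7 stayed at -0.21 and -0.23.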

How the data were processed

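RNA was sequenced from 10 mouse ESC lines, 5 LPD and 5 NPD, grouped by their labels. Per the paper's methods, the authors selected RNA with oligo(dT), trimmed reads with cutadapt, estimated transcript abundances with Salmon on GRCm38 release 88 transcripts and tested transcripts with Sleuth 0.30.0. The deposited values are a signal: estimated counts summed per gene and divided by size factors, without a fitted error. Whole reads came out for only 66.2% to 72.0% of low values (within 0.15 of a whole number), so no count model was fitted. Depth was read from genes with 1 annotated transcript (91.0% to 99.7% whole) by the value of 1 read.

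Diet was compared with limma 3.58.1 in R 4.3.3 on log2(value + 1) with a mean-variance trend, over 14354 genes (mean over lines 10 or more), with Benjamini-Hochberg adjustment (threshold 0.1). An unadjusted p under 0.05 is a description. For single genes, two-sided exact permutation tests used all 252 assignments of lines. Each line is 1 sample, so p-values set the diet difference against the spread between lines, which in limma was moderated over all genes. The paper states that the lines it analysed each came from a different mother. In simulated tables of 14354 genes, 26% of genes changed by 0.5 and 65% changed by 1 (log2) were called, and 0 with nothing changed. The simulated noise was normal and drawn independently for each gene and line. It held none of the differences in depth or composition between the real lines, so these rates may not hold for them. Gene positions came from GENCODE M21, to which 19891 of 20206 rows matched, and promoter windows from RefSeq (GRCm38.p6). Python 3.11.15, numpy 2.4.6, pandas 2.3.3 and matplotlib 3.10.9 were used for descriptions.

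The members and lists were chosen with earlier results of these data known. Named were all members, the genes of each list with an unadjusted p under 0.05 (at most 3, or the 1 with the smallest p), the 2 genes most like each member, markers beside a result and list genes whose diets did not overlap. Alternatives changed the pseudocount, filter, scaling, variance model, test and lines. Leaving out the 3 lines with the highest fibroblast sums was chosen after seeing the data.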

Additional observations from a re-analysis of the deposited data

Results flagged for a closer look

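In 40 groups of 5 lines (each member and each named partner gene in each diet), a line was marked where its gap to the nearest other line exceeded 0.710 of the group's range, which chance gives in about 1 of 20 groups; 2 were marked. Zfp57 was at 8175 in LPD line 6, against 5879 to 6413 in the other 4 LPD lines, a gap of 0.768 of the range. Setdb1, an H3K9 methyltransferase, was at 3322 in NPD line 8, against 2511 to 2671 in the other 4 NPD lines, a gap of 0.803 of the range. LPD line 6 and NPD line 8 were also among the 3 lines with the highest summed fibroblast markers, and any link of that sum to either value was not tested.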

How the results depend on the processing

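No paired analysis was possible because the LPD and NPD lines share no number. No member passed the adjusted threshold under any of 21 alternatives, and Dnmt1, Tet2 and Tdg kept their direction under all of them. Over all genes, 1 passed the adjusted threshold (limma) with array weights, 1 with the 3 lines of highest fibroblast sums left out (a setting chosen after seeing the data), and 0 to 40 when a line was left out, with 40 without LPD line 40 and no member or partner among them. Members at an unadjusted p under 0.05 numbered 1 in the main fit, 0 with no mean-variance trend and 0 to 2 when a line was left out, 2 without LPD line 6.

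Rescaled to the same total, Dnmt3l was -0.0159 and Zfp57 -0.0133 (log2), with quantile normalization -0.0222 and -0.0186, and Tet3 was 0.0625 with array weights. Without NPD line 15 and LPD line 4, Dnmt3l was -0.0247, and without the 3 lines of highest fibroblast sums Dnmt3b was 0.00888, Tet1 0.00161, Tet3 0.187 and Zfp57 -0.0491. Leaving out 1 line gave -0.115 to 0.279 for Dnmt3l, -0.520 to 0.0775 for Dnmt3a, -0.317 to -0.116 for Dnmt3b, -0.366 to -0.0395 for Tet1, -0.0844 to 0.00159 for Uhrf1, -0.138 to 0.0584 for Tet3, -0.0612 to 0.0577 for Zfp57 and -0.240 to -0.157 for Tet2, which was -0.19 with no mean-variance trend, short of the unadjusted threshold. The causes were not tested. Genes higher in LPD made up 56.6% of those at an unadjusted p under 0.05 (408 higher, 313 lower), but 40.2% when rescaled to the same total (295 and 439) and 46.2% with no filter (472 and 549). The median of all genes was 0.00 in the main fit and -0.03 when rescaled to the same total. Partner genes lower at an unadjusted p under 0.05 numbered 1 to 8 over the alternatives. Depth was lowest in LPD line 4, and Tet3, at 111 read equivalents, was the lowest member there.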
